A study of Mus musculus with 40 samples.

Results

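*Sox1*, *Pax6*, *Irx3*, *Sox11*, *Sox4*, *Nes* and *Kif1a* are genes associated with neural progenitors and early neurons, and their RNA was followed across 4 genotypes and 2 stages of pluripotency in mouse cells. The 7 genes were chosen by name, with earlier results of these data known. They were found in a table of 56748 genes through their Ensembl identifiers. All 7 passed the filter on low counts, as did 23399 genes in all. Between the naive state of embryonic stem cells (mES cells) and epiblast-like cells (EpiLCs), 6 of the 7 rose over 2-fold in wild-type (WT) cells, where 18.2% of the genes tested were called higher. In mES cells without lamins (TKO) *Sox11* and *Pax6* were lower, with log2 changes from WT of -3.42 ± 0.15 and -2.43 ± 0.30 (standard error, SE, with 4 mutant and 8 WT libraries). In cells lacking both the lamins and the lamin B receptor LBR (QKO), *Sox11*, *Sox4*, *Irx3* and *Pax6* were each lower than in WT mES cells. *Irx3* was near the floor, with 3 counts in all over the 4 QKO mES libraries. *Pax6* was also lower in mES cells lacking LBR alone (LBRKO, -2.51 ± 0.29), and it had few reads in every mutant at this stage. In EpiLCs the largest difference from WT was at *Kif1a*, which was lower in each of the 3 mutants and lowest in QKO (-3.83 ± 0.12).

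The neural plate forms from epiblast cells that escape signals for mesoderm and surface ectoderm. *Sox1* encodes a SoxB1 transcription factor that marks the neural plate from its onset, *Pax6* a paired-box factor of forebrain, eye and ventral neural tube, and *Irx3* an Iroquois homeobox factor that helps to pattern the neural tube. *Sox4* and *Sox11* encode SoxC factors that act as progenitors become neurons and are also used outside the nervous system. *Nes* encodes nestin, an intermediate filament protein of dividing neural progenitors, and *Kif1a* encodes a kinesin-3 motor that carries synaptic vesicle precursors along axons. The lamins form a filament meshwork under the inner nuclear membrane, LBR is a membrane protein of that compartment, and both tether heterochromatin to the nuclear periphery.

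Total RNA was sequenced from 40 cultures: 8 WT and 4 each of LBRKO, TKO and QKO at each stage. mES cells were kept 48 h in medium with 3 µM CHIR-99021, 1 µM PD0325901 and LIF, where the inhibitors of GSK3 and MEK hold them in naive pluripotency, and EpiLCs grew for 48 h with FGF at 20 ng/mL and Activin A at 12 ng/mL. LBRKO cells carried disrupted *Lbr* in the WT line, TKO cells lacked *Lmna*, *Lmnb1* and *Lmnb2*, and QKO cells, all of 1 clone, carried disrupted *Lbr* in the TKO line. WT and TKO lines were XY littermate lines, several LBRKO clones existed and the labels do not say which was used, and each library came from its own culture well, so that the p-values measure spread between wells and not between independent lines. Genotype and clone cannot be told apart in QKO, nor genotype and line in TKO. The methods of the study describe trisomy 8 in TKO cells and in part of the WT cells.

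The genes lie on 6 chromosomes (GRCm39 positions). *Sox1* (ENSMUSG00000096014.2, chr8:12445295-12450126, plus strand) and *Irx3* (ENSMUSG00000031734.14, chr8:92525153-92528695, minus strand) share chromosome 8. *Pax6* is ENSMUSG00000027168.22, chr2:105499234-105530952, plus strand. *Sox11* is ENSMUSG00000063632.7, chr12:27384263-27392573, minus strand, and *Sox4* is ENSMUSG00000076431.5, chr13:29132902-29137696, minus strand. *Nes* is ENSMUSG00000004891.17, chr3:87878385-87887758, plus strand, and *Kif1a* is ENSMUSG00000014602.16, chr1:92942641-93029752, minus strand. *Sox1*, *Sox11* and *Sox4* are genes of 1 exon, whereas the canonical transcript has 4 exons in *Irx3* and *Nes*, 12 in *Pax6* and 49 in *Kif1a*. Counts covered all annotated exons, untranslated parts included. In the count table, exons of *Irx3* shared 127 of 2762 bases with the antisense transcript *Irx3os*, and an 86-base microRNA model inside *Sox1* had no counts in any library. No other gene shared exonic bases with a member. The kit was stranded, but no source used here gives the strand setting of the counting. Reads of *Irx3* and *Irx3os* could have been mixed, and *Irx3os* held 215 counts over the 40 libraries against 1655 for *Irx3*.

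The promoters of *Sox11*, *Sox4* and *Kif1a* are shown because *Sox11* in mES cells and *Kif1a* in EpiLCs had the largest changes of the 7 genes against WT, and *Sox4* is the SoxC relative of *Sox11*. Each sequence is the 250 bases before the canonical transcript start in GRCm39, read 5′ to 3′ on the gene's strand, with CpG dinucleotides in capitals.
*Sox11*, chr12:27392574-27392823, minus strand: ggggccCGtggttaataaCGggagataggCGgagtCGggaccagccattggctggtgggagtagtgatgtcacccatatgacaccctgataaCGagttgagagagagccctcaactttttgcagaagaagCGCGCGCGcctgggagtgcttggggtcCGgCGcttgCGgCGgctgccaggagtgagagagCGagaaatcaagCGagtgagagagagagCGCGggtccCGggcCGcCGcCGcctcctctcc
*Sox4*, chr13:29137697-29137946, minus strand: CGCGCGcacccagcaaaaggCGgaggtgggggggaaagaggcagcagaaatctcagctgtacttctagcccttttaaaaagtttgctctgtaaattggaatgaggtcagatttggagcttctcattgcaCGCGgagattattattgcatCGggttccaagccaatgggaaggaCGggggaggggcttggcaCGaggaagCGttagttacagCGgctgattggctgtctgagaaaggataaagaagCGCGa
*Kif1a*, chr1:93029753-93030002, minus strand: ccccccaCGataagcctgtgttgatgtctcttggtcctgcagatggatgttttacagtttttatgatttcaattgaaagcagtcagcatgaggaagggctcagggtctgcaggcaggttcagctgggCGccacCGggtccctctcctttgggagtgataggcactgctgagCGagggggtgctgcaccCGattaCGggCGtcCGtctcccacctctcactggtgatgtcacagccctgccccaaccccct
The *Sox11* window held 21 CpG, the *Sox4* window 13 and the *Kif1a* window 8, against a median of 11 (quartiles 6 and 18) over 15477 promoters of tested protein-coding genes. For the other members the count was 19 in *Irx3*, 15 in *Nes*, 14 in *Pax6* and 11 in *Sox1*. Motifs were searched on both strands. TATAAA, the core promoter box, was in none of the 7 windows and in 7.77% of all these promoters. AACAAAG, a motif of SOX factors, was in none either (4.23% of all), nor was the octamer ATGCAAAT (1.39%). TAATCC, a motif of OTX factors, was in none (6.38%), and the homeodomain motif TAATTA was in none (3.17%). CCAAT was in the windows of *Sox1*, *Pax6*, *Sox11* and *Sox4* and in 36.1% of all. The letters GGGCGG were in those of *Irx3* and *Nes* and in 47.0% of all. The E-box CAGCTG was in those of *Sox4* and *Kif1a* and in 11.5% of all. A match, or its absence, describes the letters of the window only.

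Counts assigned to genes ranged from 22.6 to 48.9 M per library. *Lmnb1* and *Lmnb2* were at 8.26 to 8.82 and 3.96 to 4.71 CPM (counts per M counts of the scaled library) in TKO mES cells, against 481 to 546 and 93.2 to 116 in WT, and *Lmna* at 14.1 to 17.0 against 45.1 to 71.5. In EpiLCs *Lmna* was at 7.36 to 8.34 in TKO and 6.95 to 9.43 in QKO against 9.28 to 13.03 in WT, so that TKO lay below WT with means less than 2-fold apart and QKO overlapped WT, and *Lmnb1* and *Lmnb2* were at 0.535 to 1.17 and 1.68 to 3.37 in TKO against 499 to 547 and 89.8 to 102. *Lbr* RNA was at 145 to 274 in LBRKO and 236 to 239 in QKO mES cells against 347 to 407 in WT, and in EpiLCs LBRKO (196 to 403) overlapped WT (364 to 513). Since the *Lbr* alleles are small insertions and deletions, RNA level is a weak check of that label. The 6 naive markers *Klf4*, *Zfp42*, *Tfcp2l1*, *Esrrb*, *Nanog* and *Prdm14* summed to at least 3430.3 CPM in every mES library and to 104 to 173 in WT EpiLCs, 132 to 159.5 in TKO, 143 to 169 in QKO and 195 to 295 in LBRKO EpiLCs. The EpiLC markers *Fgf5*, *Pou3f1*, *Dnmt3b* and *Otx2* summed to 3150.4 to 3840.2 CPM in WT EpiLCs, 2523 to 2859 in LBRKO, 3068 to 3321 in TKO and 2205 to 2318 in QKO. *Dnmt3b* made up most of this sum, with a mean of 3023 CPM in WT and 1693 in QKO EpiLCs. The means of the others were higher in QKO than in WT EpiLCs, at 180.4 against 146 for *Fgf5*, 239 against 226 for *Pou3f1* and 166 against 119 for *Otx2*.

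Within WT, replicates 1 to 4 and 5 to 8 stood apart. In WT mES cells these sets did not overlap for *Sox1* (9.88 to 11.2 against 5.91 to 6.86 CPM), *Nes* (46.1 to 53.7 against 24.7 to 30.6), *Sox11* (17.3 to 20.4 against 26.8 to 31.9) and *Sox4* (10.3 to 12.1 against 12.2 to 15.3). In WT EpiLCs they did not overlap for *Sox4* (141 to 176 against 106 to 129), *Nes* (78.7 to 84.3 against 68.2 to 72.8) and *Kif1a* (106 to 109 against 123 to 137). Of all genes tested, 21.9% in mES cells and 13.7% in EpiLCs had sets that did not overlap. The labels give no reason for the 2 sets, but they differed in depth. Over both stages, WT replicates 1 to 4 held 25.4 to 33.5 M counts and replicates 5 to 8 held 39.4 to 48.9 M. LBRKO libraries held 39.7 to 48.1 M, and TKO and QKO libraries 22.6 to 33.6 M. Each main comparison with WT pooled both sets, and the part of depth in the results was not tested. Results that turn on them are in part given with the set that alters them. Over the 7 genes and 14 comparisons, replicates 1 to 4 alone removed the call of 3 values and added a call to 3. Replicates 5 to 8 alone removed 5 and added 6, and not all of these are named.

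**Figure D1:**
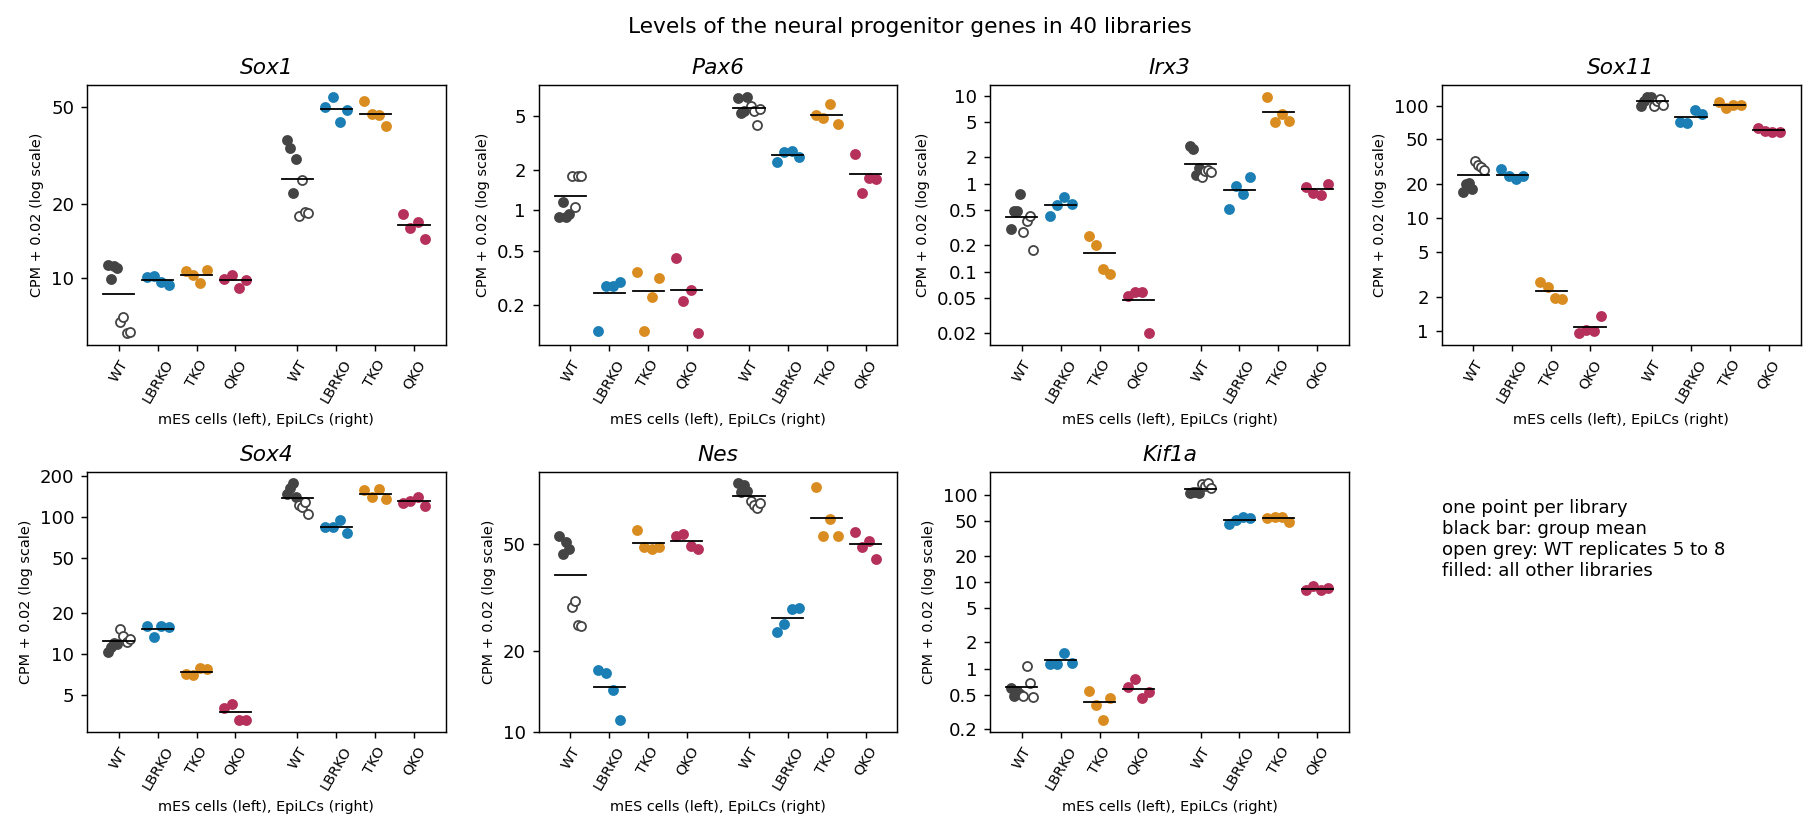
Levels of the 7 genes in each of the 40 libraries, as CPM plus 0.02 on a log axis, with mES cells on the left and EpiLCs on the right of each panel. Points are libraries, black bars are group means, and open grey points are WT replicates 5 to 8. *Sox11* lies between 0.942 and 2.71 CPM in the TKO and QKO mES libraries, below every other library, and *Kif1a* in QKO EpiLCs lies between 8.02 and 9.05.

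Most of these genes rose in the passage of WT mES cells to EpiLCs. The question was how each of them behaves as naive cells move toward the formative epiblast. *Kif1a* was nearly silent in WT mES cells, at 0.452 to 1.05 (median 0.513) CPM over 8 libraries, and was at 106 to 137 (median 116) CPM in WT EpiLCs. It rose by 7.63 ± 0.11 on the log2 scale, or 198-fold (adjusted p = 1.88e-39). *Sox4* rose from 12.4 ± 1.52 to 138 ± 24.0 CPM (SD, n = 8), a log2 change of 3.47 ± 0.087, and *Sox11* from 24.1 ± 5.79 to 109 ± 8.48 CPM (2.17 ± 0.094). *Pax6* rose from 1.26 ± 0.427 to 5.69 ± 0.851 CPM (2.15 ± 0.18), *Irx3* from 0.397 ± 0.179 to 1.65 ± 0.592 (2.07 ± 0.24) and *Sox1* from 8.56 ± 2.44 to 25.3 ± 7.39 (1.57 ± 0.14). *Nes* went from 38.5 ± 12.3 to 76.0 ± 6.21 CPM (0.98 ± 0.12, adjusted p = 3.3e-09), which missed the 2-fold threshold by little. For all 7 the WT libraries of the 2 stages did not overlap, as for 35.4% of all genes tested.

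A gene was called when its Benjamini-Hochberg adjusted p from edgeR's quasi-likelihood test was under 0.05 and its fold change over 2, both taken over the 23399 genes. By this rule 6 of the 7 were higher and 0 lower in WT EpiLCs, where 18.2% of the genes were called higher and 12.9% lower. *Nes* also passed when any of WT mES replicates 1 to 4 or WT EpiLC replicate 7 was left out (0.91 to 1.07 over all libraries left out in turn) or with WT replicates 5 to 8 alone (1.37). Per kilobase of exon, *Sox4* was the most abundant of the 7 in WT EpiLCs at 28.8 ± 5.01 RPKM (SD, n = 8), followed by *Sox11* (13.1 ± 1.02), *Kif1a* (12.7 ± 1.39), *Nes* (11.8 ± 0.969), *Sox1* (5.24 ± 1.53), *Irx3* (0.599 ± 0.214) and *Pax6* (0.486 ± 0.0727). In WT mES cells *Nes* was the highest of them at 6.01 ± 1.92 RPKM, and *Kif1a* (0.0629 ± 0.0215), *Pax6* (0.108 ± 0.0365) and *Irx3* (0.144 ± 0.0649) were the lowest. In bulk RNA, fewer cells that express a gene and less RNA per cell cannot be told apart.

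The comparisons of mutants with WT mES cells asked how loss of LBR, of the lamins or of both alters expression in naive cells. Among the SoxC genes, *Sox11* held 17.3 to 31.9 (median 23.6) CPM in the 8 WT mES libraries and 27.2, 23.5, 22.2 and 23.5 in the 4 LBRKO libraries. In TKO mES cells it was at 2.71, 2.46, 1.94 and 1.90 and in QKO mES cells at 0.942, 0.996, 0.982 and 1.34 CPM. LBRKO libraries thus lay within the WT range, whereas every TKO and QKO library lay far below it. *Sox11* fell by 3.42 ± 0.15 on the log2 scale in TKO (adjusted p = 5.07e-21) and by 4.50 ± 0.18 in QKO (adjusted p = 9.8e-24), and its change in LBRKO was -0.0032 ± 0.11 (adjusted p = 0.99). QKO was also called lower than TKO (-1.08 ± 0.23, adjusted p = 0.000427), a call that rested on TKO mES replicate 1 (-0.97 without it).

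*Sox4* followed *Sox11* in direction but with smaller changes. It held 10.3 to 15.3 (median 12.2) CPM in WT mES libraries, 7.10, 6.96, 7.84 and 7.82 in TKO and 4.03, 4.33, 3.30 and 3.29 in QKO, and neither mutant overlapped WT. The QKO change was called (-1.74 ± 0.12, adjusted p = 3.41e-15). The TKO change passed the adjusted p but not the fold threshold (-0.75 ± 0.11, adjusted p = 1.56e-06), as did that of QKO against TKO (-0.99 ± 0.14, adjusted p = 8.81e-07). That last value stood at the threshold, and it passed when TKO mES replicate 1 or 2 or QKO mES replicate 1 or 2 was left out (-1.01, -1.03, -1.03 and -1.07). LBRKO mES cells held 16.0, 13.4, 16.1 and 15.8 CPM, of which 3 lay above the WT range, and this difference was also short of 2-fold (0.30 ± 0.10, adjusted p = 0.0254).

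Of the patterning factors, *Pax6* was lower than WT in all 3 mutants. WT mES libraries held 0.863 to 1.78 (median 1.08) CPM, LBRKO libraries 0.107, 0.253, 0.255 and 0.275, TKO libraries 0.330, 0.107, 0.206 and 0.292 and QKO libraries 0.422, 0.192, 0.236 and 0.103. No mutant library reached the lowest WT library. The changes were -2.51 ± 0.29 in LBRKO (adjusted p = 4.68e-09), -2.43 ± 0.30 in TKO (adjusted p = 3.88e-08) and -2.39 ± 0.31 in QKO (adjusted p = 2.11e-08), and the difference of QKO from TKO did not pass the test (0.041 ± 0.41, adjusted p = 0.968). These rest on few reads, with 24 to 78 counts in a WT mES library and 3 to 13 in a mutant one.

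*Irx3* was near the floor of detection in mES cells. WT libraries held 0.158 to 0.752 (median 0.382) CPM (7 to 23 counts), LBRKO libraries 0.405, 0.552, 0.679 and 0.576 and TKO libraries 0.231, 0.179, 0.0884 and 0.0731 CPM. The 4 QKO libraries held 1, 1, 1 and 0 counts, 3 in all against 112 in WT, a ratio of 0.0706 with a 95% exact binomial interval from counting of 0.0143 to 0.212. LBRKO lay within the WT range, TKO had 2 libraries within the WT range and 2 under it, and QKO did not overlap it. *Irx3* was called lower in QKO (-3.69 ± 0.58, adjusted p = 1.3e-06) and in TKO (-1.43 ± 0.41, adjusted p = 0.00813), where the call ended without TKO mES replicate 3 (adjusted p = 0.0536) or with WT replicates 5 to 8 alone (adjusted p = 0.0517). Against TKO, the 3 QKO counts stood beside 17, a ratio of 0.189 with an interval of 0.0355 to 0.655. That comparison was called (-2.26 ± 0.74, adjusted p = 0.025), but lost without TKO mES replicate 1 (adjusted p = 0.106), TKO mES replicate 2 (0.0595) or QKO mES replicate 4 (0.0886). For LBRKO the value was 0.50 ± 0.30 (adjusted p = 0.241).

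*Sox1* was not called in any mutant at the naive stage. WT mES libraries held 5.91 to 11.2 (median 8.37) CPM, LBRKO 10.03, 10.1, 9.53 and 9.34, TKO 10.6, 10.2, 9.46 and 10.7 and QKO 9.85, 10.2, 9.03 and 9.78, all within the WT range. The log2 differences from WT were 0.20 ± 0.17 in LBRKO, 0.27 ± 0.17 in TKO and 0.19 ± 0.17 in QKO, and each changed sign when WT replicates 1 to 4 were used alone (-0.14, -0.076 and -0.15). Every mutant library was above WT replicates 5 to 8.

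In mES cells *Nes* was called lower in LBRKO and in no other mutant. LBRKO libraries held 17.0, 16.5, 14.3 and 11.0 CPM, below the lowest WT library at 24.7, whereas TKO held 56.7, 49.0, 48.0 and 48.7 and QKO 53.7, 54.5, 49.4 and 47.8. TKO and QKO libraries lay at or above the levels of WT replicates 1 to 4 and above WT replicates 5 to 8. The LBRKO change was -1.38 ± 0.16 (adjusted p = 9.54e-09), and with WT replicates 5 to 8 alone it was -0.89 and no longer over 2-fold (adjusted p = 4.68e-07). For TKO the value was 0.40 ± 0.15 (adjusted p = 0.0507) and for QKO 0.42 ± 0.15 (adjusted p = 0.0202). The difference between LBRKO and TKO was not itself tested.

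*Kif1a* was close to silent in all mES groups. The highest were LBRKO libraries with 1.11, 1.103, 1.51 and 1.15 CPM, all above the highest WT library at 1.05, while TKO libraries held 0.529, 0.357, 0.236 and 0.438 and QKO libraries 0.585, 0.728, 0.432 and 0.515. The LBRKO change stood at the fold threshold (1.03 ± 0.16, adjusted p = 4.83e-06), and it fell short of 2-fold without WT mES replicate 2, 4, 5 or 8 or LBRKO mES replicate 3 (down to 0.89 without the last) and with WT replicates 5 to 8 alone (0.89). In TKO it was -0.63 ± 0.24 (adjusted p = 0.0524) and in QKO -0.078 ± 0.22 (adjusted p = 0.808).

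In counts over the 7 genes, LBRKO mES cells had 1 higher and 2 lower, where 3.06% of the genes were called higher and 3.25% lower of all those tested. TKO mES cells had 0 higher and 3 lower, where 2.68% of the genes were called higher and 3.77% lower, and QKO mES cells 0 higher and 4 lower, where 10.6% of the genes were called higher and 6.66% lower. Against TKO, QKO mES cells had 0 higher and 2 lower, where 4.09% of the genes were called higher and 2.12% lower. The median log2 change of the 7 was 0.20 in LBRKO, -0.75 in TKO and -1.74 in QKO mES cells, beside 0.020, -0.0056 and 0.011 over all genes.

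**Figure D2:**
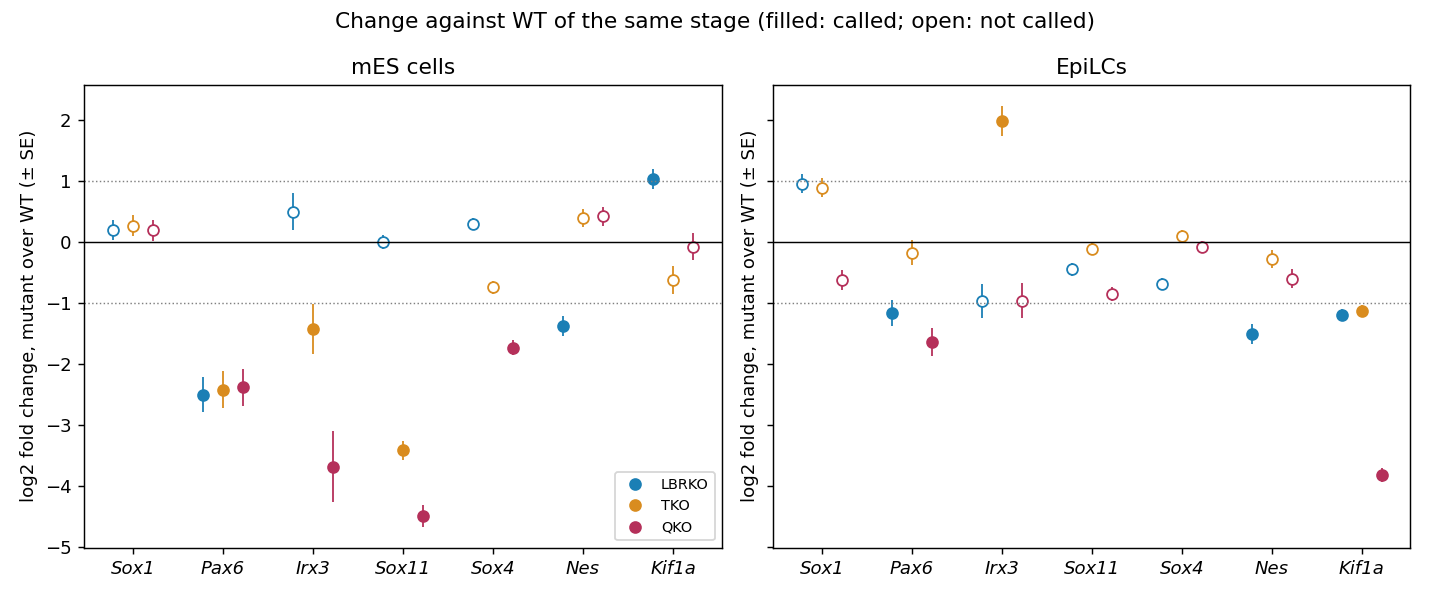
Log2 fold change of each gene in LBRKO, TKO and QKO against WT of the same stage, with standard errors. Filled points were called, open points were not, and dotted lines mark a 2-fold change. *Sox11* in QKO mES cells (-4.50) and *Kif1a* in QKO EpiLCs (-3.83) lie lowest.

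The same comparisons in EpiLCs asked how the mutants differ once cells have left the naive state. *Kif1a* held 106 to 137 (median 116) CPM in WT EpiLC libraries, 46.5, 51.3, 55.6 and 54.7 in LBRKO, 55.1, 55.5, 56.3 and 49.3 in TKO and 8.03, 9.05, 8.02 and 8.38 in QKO. LBRKO and TKO libraries overlapped each other, lay below all WT libraries and lay above all QKO libraries. *Kif1a* fell by 1.19 ± 0.10 on the log2 scale in LBRKO (adjusted p = 5.25e-13), by 1.14 ± 0.10 in TKO (adjusted p = 4.67e-12) and by 3.83 ± 0.12 in QKO (adjusted p = 1.35e-27), and QKO was called lower than TKO (-2.69 ± 0.12, adjusted p = 2.63e-21). With WT replicates 1 to 4 alone the TKO value was -0.99, just short of 2-fold (adjusted p = 3.46e-12). QKO EpiLCs also had the lowest sum of EpiLC markers (2205 to 2318 CPM against 3150.4 to 3840.2 in WT), which came from *Dnmt3b*, while the means of *Fgf5*, *Pou3f1* and *Otx2* were above those of WT. The part of these markers in the result was not tested.

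Reads over transposable element copies inside *Kif1a* introns gave a further view of this locus. A separate deposited table counts uniquely mapped reads over single copies of transposable elements, and 64 copies (10335 bases) lie within *Kif1a* introns and overlap no exon of any gene in the count table. Together they held 3.07 ± 1.43 CPM in WT EpiLCs (SD, n = 8), 1.88 ± 1.26 in LBRKO, 1.36 ± 0.385 in TKO and 0.805 ± 0.113 in QKO (n = 4 each). The WT libraries ran from 2.13 to 6.37, with replicate 7 well above the others. The QKO libraries held 0.828, 0.640, 0.884 and 0.869 CPM and the TKO libraries 1.32, 1.31, 1.87 and 0.939. All QKO and TKO libraries thus lay below the lowest WT library at 2.13. The LBRKO libraries held 0.681, 1.17, 3.53 and 2.13, which reached into the ranges of both QKO and WT. In the mES groups the sum was 0 to 5 counts per library. These counts describe the same libraries as the exons and were not tested. Of the 64 copies, 25 lie on the strand of *Kif1a*. The study reports many element families as higher in QKO EpiLCs. Whether transcription of the elements themselves adds to these counts was not tested. The other members had fewer than 10 such copies each and were not examined.

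**Figure D3:**
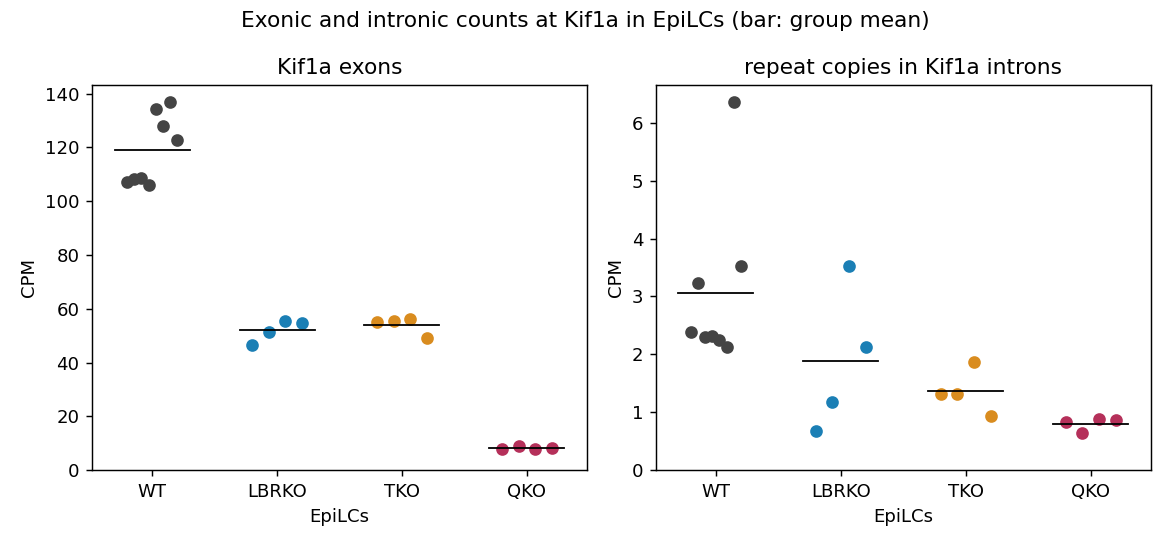
Exonic counts of *Kif1a* (left) and the summed counts of 64 transposable element copies inside its introns (right) in EpiLC libraries, both in CPM on axes from 0. Points are libraries and bars are group means. The QKO mean is the lowest in both panels, with libraries between 8.02 and 9.05 CPM for exons and 0.640 and 0.884 CPM for the element copies.

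*Irx3* went in opposite directions in TKO and QKO EpiLCs. WT EpiLC libraries held 1.16 to 2.701 (median 1.39) CPM, TKO libraries 9.75, 4.97, 6.27 and 5.18, LBRKO libraries 0.4997, 0.919, 0.752 and 1.17 and QKO libraries 0.8999, 0.767, 0.720 and 0.981. All TKO libraries exceeded, and all QKO libraries were under, every WT library. *Irx3* was called higher in TKO (1.99 ± 0.25, adjusted p = 7.15e-08) and lower in QKO than in TKO (-2.95 ± 0.32, adjusted p = 8.27e-10). Against WT, the QKO value (-0.96 ± 0.29, adjusted p = 0.0045) and the LBRKO value (-0.97 ± 0.28, adjusted p = 0.00772) lay just under 2-fold. The LBRKO value passed it without any 1 of WT EpiLC replicates 3, 5, 6, 7 and 8 or LBRKO EpiLC replicates 2 and 4 (-1.18 to -0.80 over all), and the QKO value without WT EpiLC replicate 3, 5 or 8 or QKO EpiLC replicate 4 (-1.04 to -0.83). With WT replicates 1 to 4 alone they were -1.25 and -1.23.

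*Sox1* was higher than WT in LBRKO and TKO EpiLC libraries and lower in QKO, short of 2-fold in each. WT EpiLC libraries held 17.8 to 36.4 (median 23.6) CPM, LBRKO 49.8, 54.8, 43.0 and 48.2, TKO 52.9, 46.7, 46.1 and 41.5 and QKO 18.2, 15.9, 16.8 and 14.4. LBRKO and TKO lay above every WT library, and QKO overlapped the lower WT libraries. The values against WT were 0.96 ± 0.15 (adjusted p = 4.21e-06) in LBRKO, 0.89 ± 0.15 (adjusted p = 3.74e-05) in TKO and -0.63 ± 0.16 (adjusted p = 0.00128) in QKO, and QKO was called lower than TKO (-1.52 ± 0.19, adjusted p = 1.14e-08). The LBRKO value passed 2-fold without WT EpiLC replicate 1 (1.05), WT EpiLC replicate 2 (1.03) or LBRKO EpiLC replicate 3 (1.01), and with WT replicates 5 to 8 alone the LBRKO and TKO values were 1.30 and 1.23.

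*Sox1* and *Irx3* lie on chromosome 8, which the study's methods name as trisomic in TKO cells. The median log2 change of the 1244 tested genes of this chromosome was -0.0065 in TKO and 0.066 in QKO mES cells and -0.014 and 0.036 in EpiLCs, with 0.093 and 0.077 in LBRKO.

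*Pax6* held 4.27 to 6.90 (median 5.50) CPM in WT EpiLCs, 2.25, 2.68, 2.72 and 2.47 in LBRKO, 5.03, 4.76, 6.08 and 4.30 in TKO and 2.59, 1.31, 1.70 and 1.68 in QKO. LBRKO and QKO libraries were all below WT, and TKO libraries overlapped it. It was called lower in LBRKO (-1.17 ± 0.22, adjusted p = 5.92e-05) and QKO (-1.64 ± 0.23, adjusted p = 8.47e-08) and in QKO against TKO (-1.47 ± 0.25, adjusted p = 7.93e-06), with -0.17 ± 0.21 (adjusted p = 0.645) in TKO.

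*Nes* was called in LBRKO alone among the EpiLC mutants. Libraries of LBRKO held 23.6, 25.1, 28.6 and 29.0 CPM, against 68.2 to 84.3 (median 75.7) in WT, 82.2, 53.7, 62.0 and 53.5 in TKO and 55.4, 48.9, 51.6 and 44.0 in QKO. LBRKO and QKO were below all WT libraries, and TKO spanned from below WT to its upper end. The changes were -1.51 ± 0.16 (adjusted p = 7.97e-10) in LBRKO, -0.60 ± 0.15 (adjusted p = 0.000929) in QKO and -0.28 ± 0.15 (adjusted p = 0.244) in TKO. LBRKO EpiLCs also had the highest sum of naive markers, 195 to 295 CPM against 104 to 173 in WT, with all 6 markers higher in mean than in WT except *Nanog*. The part of these markers in the result was not tested.

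Neither SoxC gene was called in an EpiLC mutant. *Sox11* held 98.5 to 119.6 (median 109.6) CPM in WT, 71.7, 69.8, 91.4 and 84.9 in LBRKO, 108, 95.2, 100.4 and 100.4 in TKO and 63.4, 60.02, 57.9 and 58.8 in QKO. LBRKO and QKO libraries were below all WT libraries and TKO overlapped WT. The changes were -0.45 ± 0.11 (adjusted p = 0.00184) in LBRKO, -0.11 ± 0.11 (adjusted p = 0.575) in TKO and -0.86 ± 0.11 (adjusted p = 3.05e-08) in QKO, and -0.75 ± 0.13 (adjusted p = 6.98e-06) between QKO and TKO. *Sox4* held 106 to 176 (median 135) CPM in WT, 84.8, 84.2, 96.1 and 76.3 in LBRKO, 158, 141, 159 and 135 in TKO and 127, 131, 141 and 121 in QKO. The LBRKO libraries lay below the WT range (-0.69 ± 0.10, adjusted p = 4.17e-07), and the others lay within it, with 0.10 ± 0.094 in TKO and -0.082 ± 0.10 in QKO.

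Of the 7 genes, LBRKO EpiLCs had 0 called higher and 3 lower, where 3.04% of the genes were called higher and 2.63% lower of all tested. TKO EpiLCs had 1 higher and 1 lower, where 1.44% of the genes were called higher and 1.48% lower, and QKO EpiLCs 0 higher and 2 lower, where 13.0% of the genes were called higher and 8.16% lower. QKO against TKO had 0 higher and 4 lower, where 9.97% of the genes were called higher and 5.29% lower. The median of the 7 was -0.97 in LBRKO, -0.11 in TKO, -0.86 in QKO and -1.47 in QKO against TKO, beside -0.00052, -0.035, -0.0079 and -0.0089 over all genes.

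Ordered by mean level over the 8 groups, each gene had a pattern of its own. *Sox4* and *Sox11* had all 4 EpiLC groups above all 4 mES groups, with no overlap between the lowest EpiLC and the highest mES group, and so did *Kif1a* and *Sox1*. For *Sox11* and *Sox4* the order ended with WT, TKO and QKO mES cells, with no overlap between these neighbours. *Pax6* in QKO EpiLCs overlapped WT mES cells, and its 3 mutant mES groups overlapped each other at the bottom. For *Irx3* the TKO EpiLCs stood first and the QKO mES cells last, each apart from its neighbour, and LBRKO EpiLCs overlapped LBRKO mES cells. *Nes* was the exception, with TKO and QKO mES cells placed between the EpiLC groups and LBRKO mES cells lowest, and with overlap between all neighbours in the order except the last pair, LBRKO EpiLCs and LBRKO mES cells.

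Whether the passage to EpiLCs itself differed between a mutant and WT was tested by the interaction of genotype and stage. *Sox11* rose by 2.17 on the log2 scale in WT, 1.72 in LBRKO, 5.48 in TKO and 5.81 in QKO, so that its rise was larger than in WT by 3.32 ± 0.19 (adjusted p = 4.97e-17) in TKO and by 3.64 ± 0.21 (adjusted p = 7.35e-18) in QKO. This gene started low in these mES cells and ended near the WT level in TKO EpiLCs. *Irx3* also rose more in TKO (3.42 ± 0.47, adjusted p = 1.25e-06) and in QKO (2.73 ± 0.69, adjusted p = 0.00184) and less in LBRKO (-1.47 ± 0.41, adjusted p = 0.00936). The *Irx3* values start from few reads, with 17 counts in all TKO mES libraries together and 3 in all QKO ones. In QKO EpiLCs *Irx3* ended below WT EpiLCs, with means of 0.842 and 1.65 CPM. *Pax6* rose more in TKO (2.25 ± 0.37, adjusted p = 2.53e-05) and in LBRKO (1.34 ± 0.35, adjusted p = 0.00531), the latter not with WT replicates 1 to 4 alone (0.81, adjusted p = 0.119). In QKO the *Pax6* value was 0.74 ± 0.38 (adjusted p = 0.146), which became 1.20 without QKO mES replicate 1 (adjusted p = 0.0289).

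*Kif1a* rose less than in WT in QKO (-3.75 ± 0.28, adjusted p = 2.42e-14) and in LBRKO (-2.22 ± 0.19, adjusted p = 7.29e-12), with -0.51 ± 0.27 (adjusted p = 0.285) in TKO. Its own rise was 7.63 in WT, 5.41 in LBRKO, 7.12 in TKO and 3.88 in QKO on the log2 scale. *Sox4* rose more in QKO than in WT (1.65 ± 0.15, adjusted p = 1.56e-11), with 0.85 ± 0.15 in TKO and -0.99 ± 0.14 in LBRKO. With WT replicates 5 to 8 alone the TKO values of *Sox4* (1.18) and *Nes* (-1.06) passed 2-fold. The LBRKO value of *Sox4* passed 2-fold without WT mES replicate 5 or 6, any of WT EpiLC replicates 5 to 8, LBRKO mES replicate 2 or LBRKO EpiLC replicate 3 (-1.04 to -0.92 over all). *Nes* differed in QKO (-1.02 ± 0.21, adjusted p = 0.000195), at the threshold. It was under 2-fold without any 1 of WT mES replicates 5 to 8, QKO mES replicates 1 and 2 or QKO EpiLC replicate 4. Over all libraries left out it ran from -1.11 to -0.95. Mean *Nes* CPM went from 49.7 to 81.4 in WT replicates 1 to 4 and from 27.3 to 70.6 in replicates 5 to 8. The WT rise, and so the QKO difference, was smaller in replicates 1 to 4. For *Sox1* the values were 0.76 ± 0.23, 0.62 ± 0.23 and -0.82 ± 0.23 in LBRKO, TKO and QKO, none called. Over the 7 genes, LBRKO had 1 positive and 2 negative calls, TKO 3 and 0, and QKO 3 and 2. In these interactions 3.12% of the genes were called higher and 2.88% lower for LBRKO, 1.88% of the genes were called higher and 1.15% lower for TKO and 6.94% of the genes were called higher and 5.69% lower for QKO. The 3 tests share the WT libraries.

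**Figure D4:**
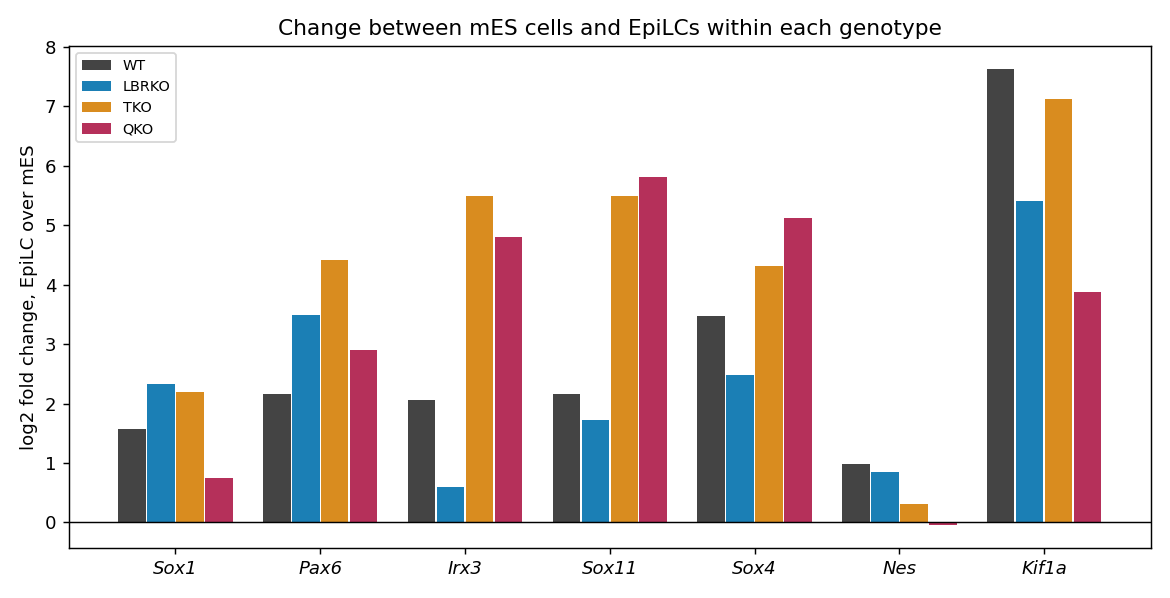
Log2 fold change from mES cells to EpiLCs of each gene within each genotype, as fitted, with bars from 0. *Sox11* rises by 5.48 in TKO and 5.81 in QKO against 2.17 in WT, and *Kif1a* by 3.88 in QKO against 7.63 in WT.

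The change in QKO was also set against the sum of the LBRKO and TKO changes on the log2 scale, which asks whether losing both components does more or less than the separate losses together. In mES cells the sum for *Pax6* was -4.94 and the change in QKO -2.39, so that QKO lay above the sum (2.55 ± 0.51, adjusted p = 0.000196), and each mutant library held at most 13 counts. *Nes* also lay above the sum (1.41 ± 0.24, adjusted p = 1.42e-05). *Sox4* (-1.29 ± 0.17, adjusted p = 2.36e-07), *Irx3* (-2.76 ± 0.80, adjusted p = 0.0112) and *Sox11* (-1.07 ± 0.25, adjusted p = 0.00153) lay below it. The *Irx3* call was lost without TKO mES replicate 1 (adjusted p = 0.0517), and the *Sox11* value fell under 2-fold without replicate 1 of LBRKO, TKO or QKO mES cells (-1.19 to -0.97). With WT replicates 5 to 8 alone the *Nes* and *Sox11* values were 0.91 and -0.80, both under 2-fold.

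In EpiLCs *Sox1* showed the largest departure. Its changes summed to 1.85 while QKO was at -0.63, a difference of -2.48 ± 0.24 (adjusted p = 1.96e-10). *Irx3* (-1.97 ± 0.41, adjusted p = 0.000333) and *Kif1a* (-1.50 ± 0.15, adjusted p = 1.74e-10) also lay below the sum and *Nes* above it (1.19 ± 0.23, adjusted p = 0.000136). *Sox4*, *Sox11* and *Pax6* were at 0.51 ± 0.15, -0.30 ± 0.17 and -0.30 ± 0.33 and were not called. The counts were 2 above and 3 below in mES cells, where 4.10% of the genes were called higher and 3.40% lower, and 1 above and 3 below in EpiLCs, where 5.09% of the genes were called higher and 2.96% lower.

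**Figure D5:**
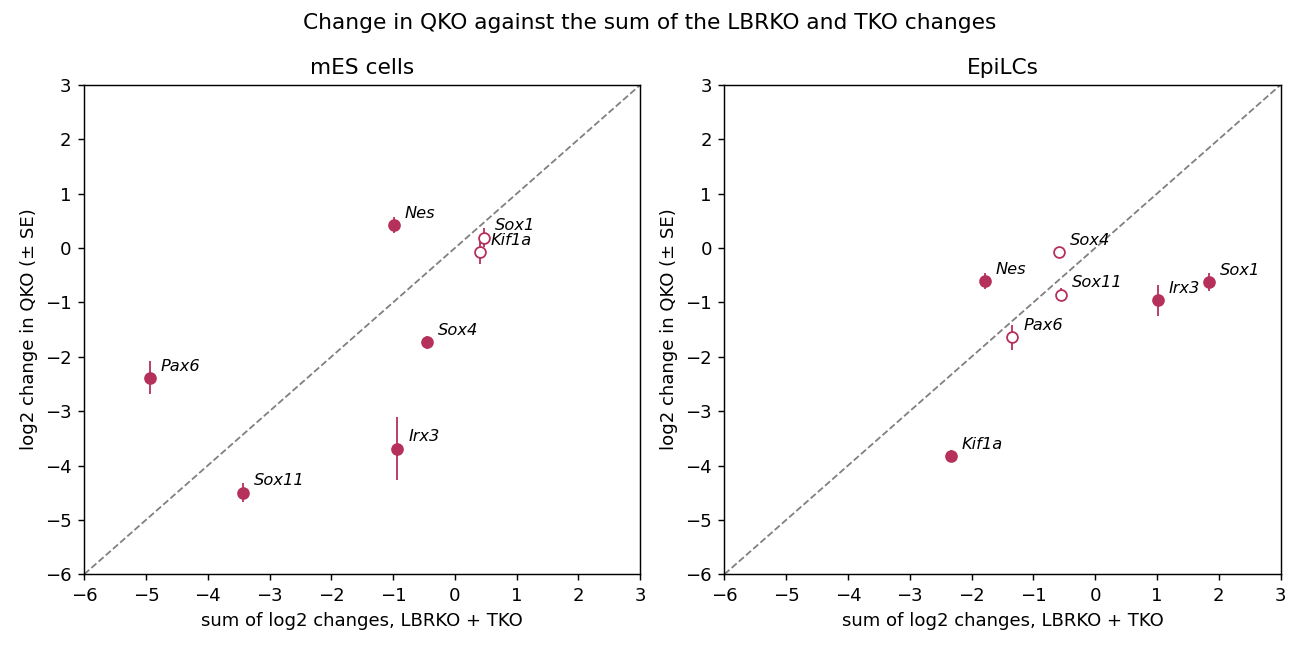
Log2 change of each gene in QKO (vertical, with SE) against the sum of its changes in LBRKO and TKO (horizontal), in mES cells and EpiLCs. The dashed line marks equality and filled points were called different from it. *Sox1* in EpiLCs lies farthest below the line among the EpiLC values, at 1.85 across and -0.63 up.

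Other genes of neural development were read from lists, with the changes given as log2 values ± SE. The shares of all tested genes called higher and lower apply to each list below. They were 18.2% and 12.9% in WT EpiLCs against mES cells. In mES cells they were 3.06% and 3.25% for LBRKO, 2.68% and 3.77% for TKO and 10.6% and 6.66% for QKO. In EpiLCs they were 3.04% and 2.63%, 1.44% and 1.48%, and 13.0% and 8.16% in the same order. For QKO against TKO they were 4.09% and 2.12% in mES cells and 9.97% and 5.29% in EpiLCs. A count near its share does not set a list apart. Of 34 neural plate transcription factors, 28 were tested. In WT EpiLCs against mES cells 15 higher and 7 lower were called (median log2 1.14, against 0.068 over all genes). *Sox3* (4.72 ± 0.17) and *Otx2*, a head organiser and forebrain factor (3.74 ± 0.26), rose, and *Hesx1* (-5.75 ± 0.29) and *Sox2* (-2.48 ± 0.074) fell. *Sox3* and *Otx2* are also in the list of primed markers, so their changes are not particular to a neural list. LBRKO had 1 higher and 2 lower in mES cells, with *Otx2* lower (-3.99 ± 0.47), and 1 higher and 0 lower in EpiLCs. TKO had 0 higher and 6 lower in mES cells, with *Gbx2* lower (-1.28 ± 0.29), and 2 higher and 1 lower in EpiLCs, with *Irx5*, a relative of *Irx3*, higher (1.23 ± 0.19). QKO had 3 higher and 9 lower in mES cells (median -0.36), with *Gbx2* lower (-1.01 ± 0.28), and 6 higher and 5 lower in EpiLCs, with *Sox2* higher (1.12 ± 0.084) and *En2* lower (-1.41 ± 0.082). Against TKO, QKO had 1 higher and 2 lower in mES cells and 5 higher and 3 lower in EpiLCs, where *Otx2* was higher (1.25 ± 0.32) and *Irx5* lower (-1.07 ± 0.23).

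Of 31 neural progenitor and Notch genes, 29 were tested, and 9 higher and 10 lower were called in WT EpiLCs, with the Notch ligand *Dll1* (5.68 ± 0.21) and the glutamate transporter *Slc1a3* (5.45 ± 0.12) at the top and *Meis2* (-3.77 ± 0.16) and *Id4* (-3.20 ± 0.17) at the bottom. LBRKO had 0 higher and 5 lower in mES cells, where *Meis2* (-1.33 ± 0.17) and the intermediate filament gene *Vim* (-1.04 ± 0.10) were lower, and 0 higher and 3 lower in EpiLCs, with *Prom1* (-1.42 ± 0.11) and *Slc1a3* (-1.02 ± 0.12) lower. TKO had 3 higher and 7 lower in mES cells, with *Meis2* higher (1.03 ± 0.16) and *Id2* lower (-1.62 ± 0.35), and 1 higher and 0 lower in EpiLCs. QKO had 3 higher and 7 lower in mES cells, with *Pou3f2* (3.23 ± 0.24) and *Meis2* (1.99 ± 0.15) higher and *Id2* (-1.93 ± 0.37) and the RNA-binding protein gene *Msi1* (-1.76 ± 0.10) lower. In QKO EpiLCs 5 higher and 7 lower were called, with *Meis2* (1.98 ± 0.19) and *Vim* (1.33 ± 0.090) higher and *Prom1* (-1.58 ± 0.12) and *Msi1* (-1.52 ± 0.10) lower. Against TKO, QKO had 1 higher and 2 lower in mES cells and 3 higher and 7 lower in EpiLCs.

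Of 32 proneural and neuronal genes, 30 were tested, and 14 higher and 3 lower were called in WT EpiLCs, led by *Insm1* (6.32 ± 0.20) and *Elavl3* (3.89 ± 0.13) among those that rose and *Mapt* (-4.77 ± 0.085) and *Stmn2* (-1.74 ± 0.073) among those that fell. LBRKO had 1 higher and 4 lower in mES cells and 1 higher and 4 lower in EpiLCs, with the microtubule-associated *Map2* lower in both (-1.55 ± 0.16 and -1.22 ± 0.16) and *Mapt* higher in EpiLCs (1.26 ± 0.10). TKO had 1 higher and 3 lower in mES cells and 0 higher and 1 lower in EpiLCs, the latter the tubulin gene *Tubb3* (-1.19 ± 0.088). QKO had 2 higher and 7 lower in mES cells, with the neurofilament gene *Nefm* higher (1.37 ± 0.14) and the kinesin gene *Kif21b* (-3.05 ± 0.14) and *Map2* (-1.58 ± 0.17) lower. In QKO EpiLCs 2 higher and 8 lower were called (median -0.56, against -0.0079 over all genes), with *Neurod1* (1.88 ± 0.10) and *Nefl* (1.06 ± 0.13) higher and *Kif21b* (-2.56 ± 0.14) and *Elavl3* (-1.86 ± 0.15) lower. Against TKO, QKO had 0 higher and 5 lower in mES cells and 1 higher and 5 lower in EpiLCs. Of the 6 other kinesin-3 genes, all tested, none was called by edgeR between a mutant and WT, since their log2 changes ran from -0.38 to 0.59 and none reached 2-fold, and *Kif13b* alone was called between WT EpiLCs and mES cells (-1.05 ± 0.065).

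The interactions of stage and genotype called 3 higher and 2 lower neural plate factors in LBRKO, 4 higher and 1 lower in TKO and 8 higher and 3 lower in QKO. For progenitor and Notch genes they called 4 higher and 1 lower, 2 higher and 2 lower and 7 higher and 4 lower, and for neuronal genes 3 higher and 4 lower, 3 higher and 2 lower and 4 higher and 4 lower. Departures of QKO from the sum of LBRKO and TKO were counted over the 3 lists in the same order. In mES cells they were 2 higher and 3 lower, 3 higher and 2 lower and 2 higher and 3 lower. In EpiLCs they were 2 higher and 5 lower, 3 higher and 2 lower and 3 higher and 4 lower. Over all genes, the interactions called 3.12% higher and 2.88% lower in LBRKO, 1.88% and 1.15% in TKO and 6.94% and 5.69% in QKO. The departures called 4.10% higher and 3.40% lower in mES cells and 5.09% and 2.96% in EpiLCs.

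The 8 neuronal markers summed to 272 to 377 CPM in WT mES cells and 189 to 235 in WT EpiLCs. In mutant EpiLCs the sum was 151 to 173 in LBRKO, 129 to 139 in TKO and 127 to 139 in QKO. *Tubb3* and *Stmn2* made up most of that sum, and *Dcx*, which marks migrating young neurons, was at 0.0181 ± 0.0336 CPM in WT mES cells and 0.461 ± 0.124 in WT EpiLCs. The markers did not move together: in QKO against WT EpiLCs mean *Tubb3* was at 31.6 against 109 CPM and *Neurod1* at 37.7 against 10.2. Of the glial markers, *Mbp* was at 8.99 ± 0.744 CPM in WT mES cells and 6.65 ± 0.802 in WT EpiLCs, and *S100b* and *Aqp4* were near 0 in all groups. Neural crest markers *Sox10*, *Snai2* and *Tfap2a* summed to 16.1 to 20.7 CPM in WT mES cells and to 3.45 to 4.44 in WT EpiLCs. In mutant mES cells the sum was 24.8 to 29.9 in LBRKO, 27.0 to 31.7 in TKO and 55.7 to 57.6 in QKO, all above WT. In mES cells it was nearly all *Tfap2a*. Mean *Sox10* was not higher in QKO than in WT mES cells, so the sum describes *Tfap2a* and not the markers together.

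For each gene the most similar patterns over the 40 libraries were found among 11407 genes, by Pearson r of log2 CPM. These values describe groups that share libraries and stages, so that points are not independent. Nearest to *Sox11* were *Arhgef5* (r = 0.986), *Rap1gds1* (r = 0.986) and *Cdca7l* (r = 0.981), to *Sox4* *Lamb1* (r = 0.988), *Cobll1* (r = 0.986) and *Aff3* (r = 0.985) and to *Kif1a* *Thbs4* (r = 0.995), *Ankrd34a* (r = 0.990) and *Dchs1* (r = 0.990). Nearest to *Pax6* were *Colec12* (r = 0.969), *Sh3bgrl* (r = 0.966) and *Amot* (r = 0.964), to *Irx3* *Rab15* (r = 0.9002), *Abhd14a* (r = 0.893) and *Mtcl1* (r = 0.888), to *Sox1* *Pcsk1n* (r = 0.938), *Cdh15* (r = 0.927) and *Plcxd2* (r = 0.924) and to *Nes* *Ppm1k* (r = 0.923), *Rfesd* (r = 0.880) and *Tbc1d32* (r = 0.878). Among the 7 themselves *Sox4* and *Kif1a* were the most alike (r = 0.914) and *Nes* and *Sox11* the least (r = 0.112).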

How the data were processed

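The deposited tables hold raw counts per gene, which the authors made by trimming reads with cutadapt 2.5, mapping to GRCm39 with STAR 2.7.10a and counting reads with a single alignment with featureCounts 1.6.4; the submitters' processing notes also name SAMtools 1.10. A further deposited table of counts over genes and transposable element families allowed multimapped reads, and another holds counts over single element copies. Libraries were made with a stranded total RNA kit after ribosomal RNA removal.

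Genes were tested with edgeR 4.0.16 in R 4.3.3 (quasi-likelihood test, TMM scaling, filterByExpr over the 8 groups), with 1 model of all 40 libraries and a mean per group, and 14 contrasts adjusted by Benjamini-Hochberg over 23399 genes. Standard errors are the size of the log2 fold change divided by the square root of F. CPM used TMM-scaled totals, RPKM also the exon length in the table. Alternatives were DESeq2 1.42.0, RLE scaling, no filter, a replicate block, only the groups compared, WT replicates 1 to 4 or 5 to 8 alone, the multimapped table and leaving out each library. The R package data.table (1.17.8) and pandas 2.3.3 handled tables, intervals were computed with scipy 1.17.1 and figures drawn with matplotlib 3.10.9. Positions and symbols came from GENCODE M39, which held 56017 of the 56748 identifiers. Counting intervals cover counting error only.

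The 7 genes and all lists were chosen with earlier results of these data known. Named genes were the 7 members, up to 2 called list genes per direction with the largest change and at least 5 CPM in the higher group, the 3 most similar genes (log2 of CPM plus 0.5, at least 5 CPM in the highest group, named symbols only), and the nearest tested protein-coding neighbours. The lists covered neural plate factors, progenitor and Notch genes, neuronal genes, kinesin-3 genes, the targeted genes, and markers of non-neural ectoderm and neural crest, glia, mesendoderm, primitive endoderm, naive and primed cells, and some named genes are not reported here.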

Additional observations from a re-analysis of the deposited data

Results flagged for a closer look

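A library far from the rest of its group was found in 6 of 56 combinations of gene and group, where chance alone would give about 5% of them. *Pax6* in LBRKO mES cells was lowest in replicate 1 at 0.107 CPM (5 counts). *Sox11* in QKO mES cells was highest in replicate 4 at 1.34 CPM. *Sox4* in LBRKO mES cells was lowest in replicate 2 at 13.4 CPM. *Nes* in TKO mES cells was highest in replicate 1 at 56.7 CPM. *Kif1a* was highest in replicate 6 of WT mES cells at 1.05 CPM and in replicate 3 of LBRKO mES cells at 1.51 CPM.

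The passage to EpiLCs differed from that in WT, by the interaction test of edgeR, in 11 combinations. In LBRKO these were *Pax6* (1.34), *Irx3* (-1.47) and *Kif1a* (-2.22). In TKO they were *Pax6* (2.25), *Irx3* (3.42) and *Sox11* (3.32). In QKO they were *Irx3* (2.73), *Sox11* (3.64), *Sox4* (1.65), *Nes* (-1.02, at the threshold) and *Kif1a* (-3.75). *Irx3* had few counts in TKO and QKO mES cells, and *Pax6* in every mES mutant, as given above.

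The change in QKO, from 1 clone, differed from the sum of the LBRKO and TKO changes in 9 combinations. The limits of these calls by few counts, single libraries and WT set are given above. In mES cells the change in QKO did so for *Pax6* (2.55), *Irx3* (-2.76), *Sox11* (-1.07), *Sox4* (-1.29) and *Nes* (1.41). In EpiLCs it did so for *Sox1* (-2.48), *Irx3* (-1.97), *Nes* (1.19) and *Kif1a* (-1.50).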

How the results depend on the processing

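Most counts of called members kept within 1.5 times of the values above, and no called fold change reversed in any alternative. Exceptions were LBRKO against WT mES cells with WT replicates 5 to 8 alone (1 in place of 3), TKO against WT EpiLCs with WT replicates 1 to 4 alone or with the replicate block (1 in place of 2), QKO against TKO mES cells with DESeq2 or with only the groups compared (1 in place of 2), the TKO passage with WT replicates 5 to 8 alone (5 in place of 3) and the departure from the sum in mES cells with those libraries (3 in place of 5). In the fit of only QKO and TKO mES cells, *Pax6* and *Irx3* did not pass the filter and have no value. Leaving out 1 library at a time gave 1 to 3 calls for QKO against TKO mES cells, 3 to 5 for the departure in mES cells, 2 to 3 for LBRKO mES cells, TKO mES cells and QKO EpiLCs (each against WT), 3 to 4 for LBRKO EpiLCs and the LBRKO passage, 4 to 5 for the QKO passage and 6 to 7 for WT EpiLCs against mES cells. Values that changed sign were all uncalled. With WT replicates 1 to 4 alone they were *Sox1* in LBRKO (-0.14), TKO (-0.076) and QKO mES cells (-0.15), *Sox11* in LBRKO (0.35) and *Kif1a* in QKO mES cells (0.13), *Sox4* in TKO EpiLCs (-0.087), *Nes* in the LBRKO passage (0.14) and *Sox1* in the departure in mES cells (0.071). With the replicate block they were *Sox1* in LBRKO (-0.11), TKO (-0.041) and QKO mES cells (-0.12), *Sox11* in LBRKO mES cells (0.14) and TKO EpiLCs (0.011), *Kif1a* in QKO mES cells (0.10) and *Sox1* in the departure in mES cells (0.033). Elsewhere they were *Sox11* in LBRKO mES cells in the multimapped table (0.0023), *Sox4* in QKO EpiLCs with only the groups compared (0.011) or WT replicates 5 to 8 (0.13) and *Nes* in QKO against TKO mES cells without a filter (-0.013). Over single libraries left out, *Sox11* in LBRKO mES cells ran from -0.084 to 0.065, *Kif1a* in QKO mES cells from -0.21 to 0.12, and in QKO against TKO mES cells *Pax6* from -0.42 to 0.29 and *Nes* from -0.012 to 0.082. The cause of these changes was not tested. In their deviations from group means, 12 of 44 pairs of same-numbered libraries correlated over 0.1 (range -0.26 to 0.45); not every pair did, so the numbers were not taken as pairing. The replicate block moved no other count of called members past 1.5 times, and it gave *Kif1a* in TKO EpiLCs at -0.99, *Irx3* in LBRKO and QKO EpiLCs at -1.27 and -1.26 and *Nes* in the WT passage at 1.04. Depth limits *Irx3*, *Pax6* and *Kif1a* in mES cells, where single libraries held 0 to 78 counts.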

Other observations

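Markers of other lineages were counted in QKO mES cells, QKO EpiLCs, LBRKO mES cells, LBRKO EpiLCs, TKO mES cells and TKO EpiLCs against WT, given in this order as the number called higher and the number called lower by edgeR. Of all genes tested, 10.6% and 6.66%, then 13.0% and 8.16%, then 3.06% and 3.25%, then 3.04% and 2.63%, then 2.68% and 3.77%, and last 1.44% and 1.48% were called higher and lower in these comparisons. Of 15 tested markers of non-neural ectoderm and neural crest the counts were 6 and 1, then 3 and 3, then 4 and 0, then 3 and 0, then 1 and 0, and last 0 and 0. For 14 mesendoderm markers they were 1 and 4, then 2 and 2, then 1 and 0, then 0 and 1, then 0 and 2, and last 0 and 1. For 15 primitive endoderm markers they were 1 and 7, then 3 and 3, then 5 and 2, then 2 and 0, then 0 and 4, and last 0 and 0. For 14 naive markers they were 1 and 0, then 6 and 1, then 0 and 1, then 5 and 0, then 0 and 0, and last 1 and 0. For 13 primed markers they were 1 and 4, then 0 and 2, then 1 and 2, then 0 and 0, then 0 and 3, and last 0 and 0.

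The nearest tested protein-coding neighbours of the 7 genes lie between 7.08 and 2179 kb away. *Sox11* lies in a stretch with no other such gene for 854 kb on the side of *Cmpk2*, an antiviral nucleotide kinase gene, which was also lower in TKO (-2.80 ± 0.41) and QKO mES cells (-1.64 ± 0.35). *Rps7* on its other side was at -0.23 ± 0.085 and -0.35 ± 0.086. Beside *Irx3*, *Irx5* was higher in TKO EpiLCs (1.23 ± 0.19), as *Irx3* was, and *Fto* was at -0.29 ± 0.055. Beside *Nes*, *Crabp2*, a retinoic acid binding protein gene, was called lower in LBRKO mES cells (-1.14 ± 0.14) and QKO mES cells (-2.005 ± 0.17), and *Bcan* lower in QKO EpiLCs (-1.61 ± 0.25). In LBRKO EpiLCs they were at -0.44 ± 0.12 and -0.15 ± 0.21. Around *Kif1a* in QKO EpiLCs, *Gpr35* was called higher (1.35 ± 0.34) and *Mab21l4* lower (-1.35 ± 0.58). *Rcn1* beside *Pax6* was called lower in QKO EpiLCs (-1.02 ± 0.050, adjusted p = 2.05e-20 by edgeR). *Hdgfl1*, 2179 kb from *Sox4*, was called lower there by a small margin (-1.67 ± 0.68, adjusted p = 0.0356). *Immp1l* beside *Pax6*, *Arhgef7* and *Tubgcp3* beside *Sox1*, and *Cdkal1* beside *Sox4* were not called in any of the 14 comparisons.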
